A study of Mus musculus with 7 samples.

Results

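The 10 genes described here encode peptides and proteins that mark the somatostatin, VIP, NPY and CCK classes of cortical inhibitory interneurons: *Sst*, *Vip*, *Npy*, *Cck*, *Crh*, *Cort*, *Tac2*, *Pdyn*, *Calb2* and *Htr3a*. They were chosen by gene symbol, 10 of the 24346 symbols in the table of whole-gene expression, and the rule used no threshold on measured values. RNA was taken from the cerebral cortex of 3 CrT+/y (WT) and 4 CrT-/y (Slc6a8 KO, here KO) male littermates at postnatal day 100 on a C57BL/6J background, with 1 library per animal. The CrT-/y males lack exons 5 to 7 of *Slc6a8*, the creatine transporter gene, on their only X chromosome, in all cells of the body. Values are FPKM, in which the authors divided the fragments of a gene by its transcript length and by the mapped fragments of the library, so levels may be set side by side between genes. *Slc6a8* itself was at 14.4 ± 1.41 FPKM (SD, n = 4) in the KO and 29.98 ± 2.15 FPKM (SD, n = 3) in the WT. The whole gene is counted, so reads outside the deleted exons still add to the KO value.

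Cortical interneurons release GABA, and most also store a neuropeptide in dense-core granules. The peptide is cut from a longer precursor by prohormone convertases, is released during strong firing and acts on G protein-coupled receptors of neighboring cells. Somatostatin cells target the dendrites of pyramidal neurons, VIP cells mainly inhibit other interneurons, and CCK cells include basket cells that contact pyramidal cell bodies. Several of these genes are also transcribed outside interneurons: *Cck* in many pyramidal cells of the cortex, *Pdyn* in striatal projection neurons and *Calb2* in cells of the olfactory bulb. In bulk tissue, fewer cells of a type and less RNA per cell cannot be told apart.

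Neuropeptide genes are textbook targets of CREB, the factor bound to the cyclic AMP response element TGACGTCA. The 120 bases before the RefSeq start of 4 members are shown because they hold the element or its core, with TGACGTCA, TGACG or its reverse complement CGTCA in capitals (GRCm38.p6, 5′ to 3′ on the strand of the gene):

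Sst, chr16:23890845-23890964, minus strand: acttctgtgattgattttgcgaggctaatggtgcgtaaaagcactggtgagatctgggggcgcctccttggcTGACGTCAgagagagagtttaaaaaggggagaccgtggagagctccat

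Cort, chr4:149126764-149126883, minus strand: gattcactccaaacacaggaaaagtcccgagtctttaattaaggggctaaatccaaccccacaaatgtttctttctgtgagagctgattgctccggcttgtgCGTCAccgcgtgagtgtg

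Cck, chr9:121495695-121495814, minus strand: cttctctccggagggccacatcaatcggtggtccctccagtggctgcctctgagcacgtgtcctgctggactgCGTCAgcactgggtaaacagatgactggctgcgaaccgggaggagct

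Vip, chr10:5639098-5639217, plus strand: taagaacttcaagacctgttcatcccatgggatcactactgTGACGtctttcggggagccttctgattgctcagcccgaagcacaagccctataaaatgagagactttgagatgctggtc

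The full element of *Sst* lay at -48 to -41 relative to the start. The core TGACG was at -18 to -14 in *Cort*, at -47 to -43 in *Cck* and at -79 to -75 in *Vip*. RefSeq windows of 250 bases before to 50 after the start were at hand for 7 members, and on either strand 1 of them held the full element and 4 the core, which is part of the full element. Of all 32851 such promoters, 1.79% held the full element and 20.8% the core. The E-box CANNTG was in 4 of the 7 and in 72.3% of all promoters. Such a match of letters is a description and not a measured binding site.

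*Sst* and *Cort* encode related peptides that act on the same receptors. The last 39 coding bases before the stop codon of *Sst* encode the end of its mature peptide. The aligned stretch of *Cort* ends just before the last codon of its coding sequence. Between the genes, 31 of 39 bases (79.5%) were identical. Both stretches are shown because the resemblance bears on which reads could be assigned to either gene, with identical bases in capitals:

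Sst: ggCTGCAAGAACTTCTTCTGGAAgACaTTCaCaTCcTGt

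Cort: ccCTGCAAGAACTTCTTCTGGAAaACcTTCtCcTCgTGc

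The longest shared run covers only part of the bases for the conserved core of both peptides. The authors kept uniquely aligned reads with at most 2 mismatches. A read that spans the whole stretch differs between the genes at more bases than that. *Cort* also lies 357 bases downstream of *Cenps* on the same strand of chromosome 4, so reads running past the end of *Cenps* could not be told from reads of *Cort* near its start.

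All 10 genes were above 0 FPKM in every animal and passed the filter of a mean of at least 1 FPKM, and each was tested with limma on log2(FPKM + 0.1) together with all other genes. A gene was called at a Benjamini-Hochberg adjusted p under 0.1. Of 12988 tested genes, 10.1% were called, 2.9% as higher and 7.25% as lower in the KO. Of the 10 interneuron genes, 3 were called: *Calb2* and *Pdyn* rose and *Cck* fell. The FPKM ranges of the genotypes did not overlap for these 3 genes, 3 of 10 beside 21.6% of all tested genes. The other 7 genes overlapped between genotypes, and the median log2 fold change of the 10 was -0.01, beside -0.03 over all tested genes. Of all tested genes, 41.8% had a positive log2 fold change, the share to set beside the counts of signs given below. The limma p-values set a difference against the spread between these animals, with the variance of each gene moderated by a trend over all genes.

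**Figure D1:**
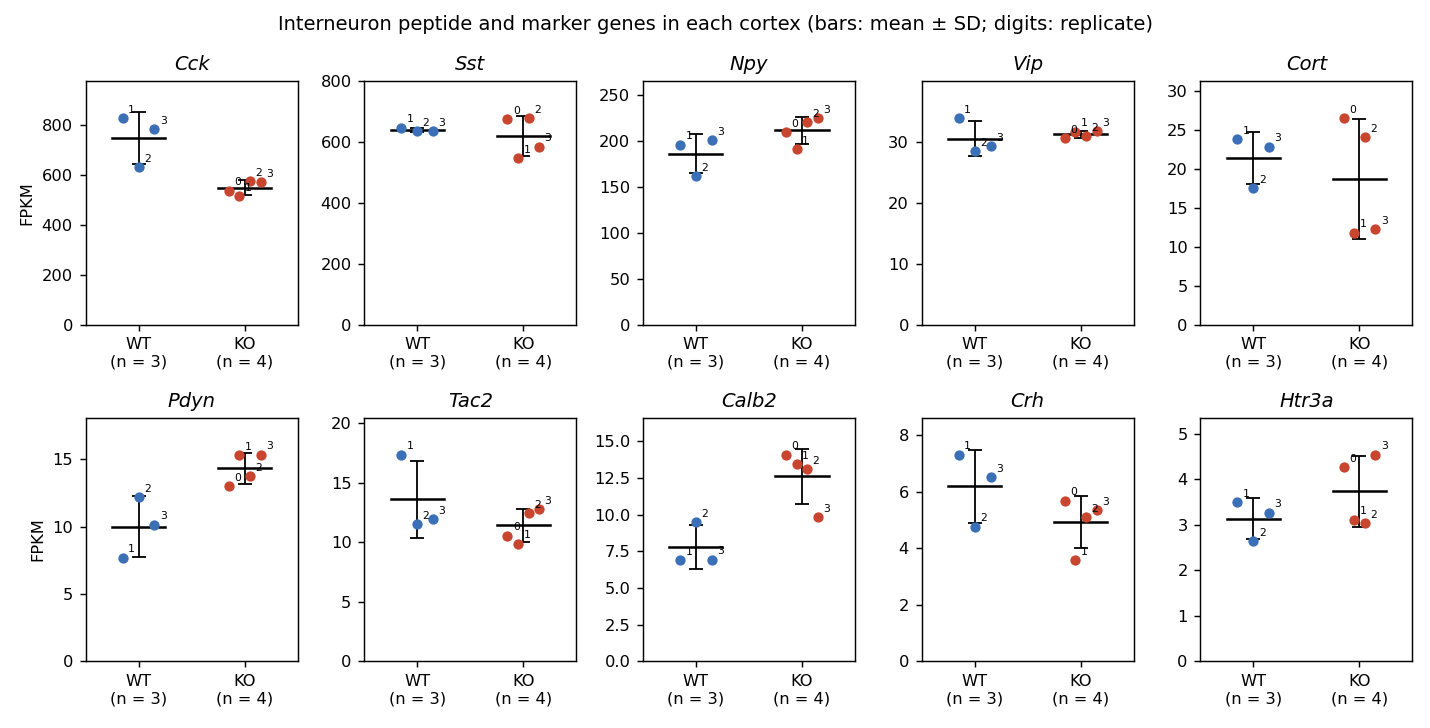
Expression of the 10 genes in FPKM (linear axis from 0) in each WT (blue, n = 3) and KO (red, n = 4) cortex, with mean and SD as black bars and the replicate number beside each point. The KO points of *Cck* all lie below the WT points, those of *Pdyn* and *Calb2* all lie above, and the other 7 genes overlap.

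By level the genes fell into tiers. Averaged over the 7 animals, *Cck* (635 FPKM) and *Sst* (629 FPKM) were highest, followed by *Npy* (200 FPKM). *Vip* (30.9 FPKM) and *Cort* (19.8 FPKM) came next, then *Pdyn* (12.5 FPKM), *Tac2* (12.3 FPKM) and *Calb2* (10.5 FPKM), and last *Crh* (5.47 FPKM) and *Htr3a* (3.48 FPKM). The steps from *Sst* to *Npy*, *Npy* to *Vip*, *Vip* to *Cort* and *Crh* to *Htr3a* held in 7 of 7 animals. *Calb2* was above *Crh* in 6 of 7. *Cort*, *Pdyn*, *Tac2* and *Calb2* could not be put in a firm order, since neighbors among them kept their order in only 4 or 5 of 7 animals. The 2 most abundant peptides also changed places: *Sst* exceeded *Cck* in 4 of 4 KO animals and *Cck* exceeded *Sst* in 2 of 3 WT animals.

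*Cck* encodes cholecystokinin, made by a class of basket cells and by many pyramidal cells. It was at 829, 631 and 785 FPKM in WT_1 to WT_3 and at 538, 515, 577 and 572 FPKM in KO_0 to KO_3. Every KO animal was below the lowest WT animal, and the KO mean (551 ± 29.5 FPKM, SD, n = 4) was 73.6% of the WT mean (748 ± 104 FPKM, SD, n = 3). The log2 fold change was -0.43 (SE 0.10, 95% interval -0.65 to -0.22, adjusted p = 0.050 by limma), and the exact permutation test over animals gave its smallest possible p of 0.0286. Without any 1 animal the log2 fold change stayed between -0.55 and -0.36, while the adjusted p ranged from 0.024 to 0.15 and the call was kept only without WT_2 or WT_3. Markers of excitatory neurons, the other cortical source of *Cck*, had a negative log2 fold change for 9 of 10 genes (median -0.17), and 2 of 10 were called lower. Of these, *Neurod6* fell by 0.42 on the log2 scale, a call kept only without KO_2 or WT_3 when 1 animal was left out (-0.52 to -0.36). It was also lost with no filter on low values, under quantile normalization and with the striatal or bulb covariate described below. Under quantile normalization 0 of the 10 markers were called (median -0.12), and 8 when centred on *Gad1*, *Gad2* and *Slc32a1*. Their summed level was 770 to 852 FPKM in the KO and 773 to 926 FPKM in the WT, with no marker at 0. The part of these cells in the *Cck* result was not tested.

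Of the receptors for the peptides, 12 of 17 listed genes passed the filter, and 1 rose and 2 fell. *Cckbr*, the main brain receptor for cholecystokinin, was among those that fell. It was at 39.6, 33.0 and 31.1 FPKM in the WT animals and at 26.3, 26.1, 25.3 and 27.3 FPKM in the KO animals, without overlap (log2 fold change -0.39, SE 0.08, adjusted p = 0.042 by limma). Without 1 animal the log2 fold change was -0.46 to -0.29 (adjusted p of 0.0089 to 0.13), and the call was lost without KO_1 or KO_2. Both *Cck* and *Cckbr* were below the WT range in all 4 KO animals.

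*Calb2* encodes calretinin, a calcium-binding protein found in a subset of VIP cells. It was at 6.89, 9.50 and 6.92 FPKM in WT_1 to WT_3 and at 14.1, 13.4, 13.1 and 9.82 FPKM in KO_0 to KO_3. The lowest KO animal, KO_3, was close to the highest WT animal, WT_2, and the remaining 3 KO animals stood well above. The KO mean (12.6 ± 1.89 FPKM, SD, n = 4) was 162% of the WT mean (7.77 ± 1.497 FPKM, SD, n = 3). The log2 fold change was 0.69 (SE 0.15, 95% interval 0.36 to 1.03, adjusted p = 0.044 by limma), and the exact permutation test gave p = 0.057. The log2 fold change was 0.62 to 0.85 without any 1 animal, with an adjusted p of 0.041 to 0.14, and the call was lost without KO_1, KO_2 or WT_1. *Vip*, the peptide of the cells that calretinin partly marks, was not called. In a separate list of EF-hand calcium-binding genes, 0 of 11 tested genes were called by limma (7 at an unadjusted p under 0.05) and 9 had a negative log2 fold change (median -0.18), the lowest p belonging to *Calm2*, a calmodulin gene (log2 fold change -0.30, adjusted p = 0.12).

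Calretinin is abundant in the olfactory bulb, and transcripts of that region were measured beside *Calb2*. Of 8 listed bulb markers, 5 passed the filter, all 5 had a positive log2 fold change (median 0.95), and *Cdhr1*, a mitral cell cadherin, rose (log2 fold change 1.51, adjusted p = 0.079 by limma). That call was kept only without WT_2 when 1 animal was left out (log2 fold change 1.13 to 1.91, adjusted p of 0.069 to 0.22). The summed level of the 8 markers was 9.08 to 22.7 FPKM in the KO and 5.47 to 9.45 FPKM in the WT, and none of the 8 was at 0 in any animal. Within the KO, KO_3 had the lowest value of both *Calb2* and the bulb markers, while KO_1 had the highest level of the bulb markers and KO_0 the highest of *Calb2*. Within the WT, WT_2 was highest in both, and WT_1 and WT_3 were close to each other in both (5.49 and 5.47 FPKM of bulb markers). KO_3 and WT_2, with similar bulb sums (9.08 and 9.45 FPKM), also had similar *Calb2* values (9.82 and 9.50 FPKM). The part of bulb tissue in the *Calb2* result was not tested beyond the covariate fit that follows. With the mean log2 level of 3 bulb markers (*Cdhr1*, *Doc2g* and *Th*) as a covariate, *Calb2* had a log2 fold change of 0.37 (adjusted p = 0.27) and *Cck* of -0.24 (adjusted p = 0.30). In that fit limma called 0 of 12988 genes, *Slc6a8* included (adjusted p = 0.12), with 2165 at an unadjusted p under 0.05. The covariate overlapped little between genotypes, at 0.98 to 2.40 in the KO and 0.32 to 1.25 in the WT.

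*Pdyn* encodes prodynorphin, the precursor of the dynorphin peptides, made by some somatostatin cells and by striatal neurons. It was at 7.69, 12.2 and 10.2 FPKM in WT_1 to WT_3 and at 13.0, 15.3, 13.7 and 15.3 FPKM in KO_0 to KO_3. The KO animals were closely spaced and all above the WT animals, which were spread more widely. The KO mean (14.4 ± 1.16 FPKM, SD, n = 4) was 143% of the WT mean (10.01 ± 2.25 FPKM, SD, n = 3). This gave a log2 fold change of 0.54 (SE 0.14, 95% interval 0.23 to 0.85, adjusted p = 0.064 by limma), and the exact permutation test gave p = 0.0286. Leaving out 1 animal gave 0.36 to 0.69 with an adjusted p of 0.048 to 0.17, and the call was lost without KO_1, KO_2, KO_3 or WT_1. The receptor for dynorphin, *Oprk1*, rose as well, from 1.77, 2.46 and 2.04 FPKM in the WT to 2.86, 3.97, 2.85 and 3.33 FPKM in the KO (log2 fold change 0.61, SE 0.15, adjusted p = 0.061 by limma). Without 1 animal it was 0.51 to 0.73 (adjusted p of 0.053 to 0.17), and the call was lost without KO_1, KO_2, KO_3 or WT_1. The calls of *Pdyn* and *Oprk1* were also lost with no filter on low values and with the replicate block and length correction together, that of *Oprk1* with the block alone as well.

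Striatal transcripts varied strongly between the cortex samples. All 10 listed striatal genes had a positive log2 fold change (median 0.69) while limma called 0 of them. The 1 gene at an unadjusted p under 0.05 was *Tac1* (limma, adjusted p = 0.12). With 1 animal left out, the median of the 10 genes ranged from 0.14 (without WT_1, 8 positive) to 1.29 (without WT_2, 3 called higher). Their summed level was 244 to 558 FPKM in the KO and 135 to 515 FPKM in the WT, with none at 0, and the ranges overlapped. Within the KO, the animals of highest (KO_1) and lowest (KO_3) striatal level had nearly equal *Pdyn* values, both 15.3 FPKM. In the WT, WT_1 was lowest and WT_2 highest in both. WT_2, whose striatal level was close to that of KO_1, was below every KO animal in *Pdyn* and in *Calb2*. With the mean log2 level of the 8 striatal genes that encode no peptide as a covariate, the log2 fold change of *Pdyn* was 0.41 (adjusted p = 0.12) and that of *Calb2* 0.54 (adjusted p = 0.078), and *Cck* was at -0.33 (adjusted p = 0.078). The call of *Pdyn* was thus lost, as was that of *Oprk1* (0.50, adjusted p = 0.12), and beyond this fit the part of striatal tissue was not tested.

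**Figure D2:**
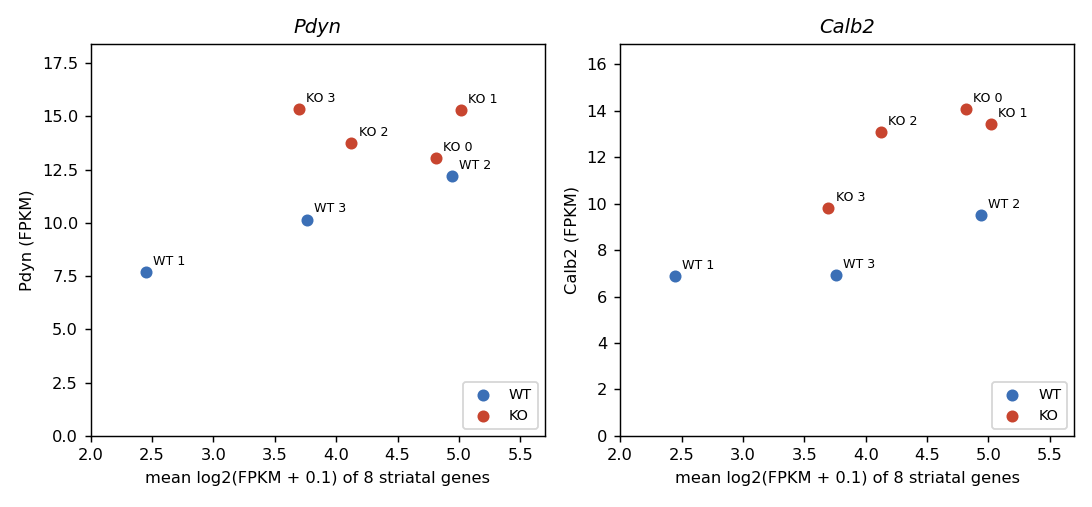
FPKM of *Pdyn* and *Calb2* (y axes, linear from 0) against the mean log2(FPKM + 0.1) of 8 striatal genes (x axes) in each WT (blue) and KO (red) animal. WT_2 sits at 4.94 on the striatal axis, beside KO_0 at 4.81 and KO_1 at 5.02, and below them in both genes.

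*Sst* encodes somatostatin, the peptide of the dendrite-targeting class. It was at 647, 636 and 636 FPKM in WT_1 to WT_3, a spread of 1.01% of the mean (SD), and at 675, 548, 679 and 585 FPKM in KO_0 to KO_3, a spread of 10.6%. The KO values lay on both sides of the tight WT range. Its log2 fold change was -0.05 (95% interval -0.24 to 0.15, adjusted p = 0.76 by limma), and its sign turned under quantile normalization, upper quartile scaling or without KO_1. *Sstr4*, one of the 5 somatostatin receptors listed, fell from 16.9, 16.4 and 18.2 FPKM in the WT to 12.4, 12.1, 14.8 and 14.6 FPKM in the KO (log2 fold change -0.35, SE 0.09, adjusted p = 0.061 by limma). The call of *Sstr4* was lost without KO_0, KO_1, KO_2 or WT_1 (adjusted p of 0.059 to 0.16 with 1 animal left out).

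*Cort* encodes cortistatin, the relative of somatostatin for which a coding stretch is shown above. It was at 23.8, 17.5 and 22.8 FPKM in the WT animals. The KO animals held a high and a low pair, KO_0 and KO_2 at 26.5 and 24.1 FPKM and KO_1 and KO_3 at 11.8 and 12.3 FPKM. These pairs were also the high and the low pair for *Sst*. The KO spread (SD) of *Cort* was 41.3% of its mean, the widest of the 10 genes, and the log2 fold change was -0.28 (95% interval -0.92 to 0.36, adjusted p = 0.57 by limma).

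*Npy* encodes neuropeptide Y, found in neurogliaform cells and in part of the somatostatin class. It was at 196, 161 and 201 FPKM in the WT and at 209, 191, 220 and 224 FPKM in the KO. Of the KO animals 3 exceeded all WT animals and KO_1 lay within their range. The log2 fold change was 0.19 (95% interval -0.01 to 0.39, adjusted p = 0.22 by limma), and it was 0.25 and called without WT_3 (adjusted p = 0.099). *Npy* had the shortest transcript of the 10 (566 bases, beside a median of 3481 over tested genes), and once the trend of expression on transcript length was taken out of each library its log2 fold change was 0.06 (adjusted p = 0.64). The receptors *Npy1r*, *Npy2r* and *Npy5r* were tested and not called.

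*Crh* encodes corticotropin-releasing hormone, which is found in somatostatin and VIP cells of the cortex. It was at 7.30, 4.77 and 6.51 FPKM in the WT and at 5.68, 3.58, 5.09 and 5.34 FPKM in the KO. The genotypes overlapped through WT_2, the lowest WT animal (log2 fold change -0.32, 95% interval -0.73 to 0.08, adjusted p = 0.29 by limma).

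*Tac2* encodes neurokinin B, a tachykinin peptide found in part of the VIP class. It was at 17.3, 11.5 and 11.9 FPKM in the WT and at 10.5, 9.89, 12.4 and 12.8 FPKM in the KO. The WT mean rested on WT_1, and the remaining animals of both genotypes lay in 1 range (log2 fold change -0.23, 95% interval -0.57 to 0.10, adjusted p = 0.35 by limma).

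*Vip* encodes vasoactive intestinal peptide. It was at 33.9, 28.4 and 29.3 FPKM in the WT and at 30.6, 31.6, 30.9 and 31.8 FPKM in the KO. The 4 KO animals lay within the WT range and had the smallest KO spread of the 10 genes (SD 1.88% of the mean). Its log2 fold change was 0.04 (95% interval -0.11 to 0.19, adjusted p = 0.77 by limma), so that a change of more than 0.19 in either direction lay outside the interval.

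*Htr3a* encodes the ionotropic serotonin receptor subunit that marks the VIP and neurogliaform lineages as a whole. It was at 3.50, 2.64 and 3.27 FPKM in the WT and at 4.27, 3.11, 3.03 and 4.54 FPKM in the KO. Of the KO animals 2 lay above the WT range and 2 within it (log2 fold change 0.23, 95% interval -0.14 to 0.61, adjusted p = 0.41 by limma). In the list of other serotonin receptors 0 of 9 tested genes were called by limma (2 at an unadjusted p under 0.05), 7 had a positive log2 fold change, and the lowest p was that of *Htr2c* (log2 fold change 0.58, adjusted p = 0.12).

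A ratio within each library compares a peptide with the general GABA markers. *Gad1* and *Gad2*, the enzymes that make GABA, and *Slc32a1*, the vesicular GABA transporter, were averaged on the log2 scale in each animal and subtracted. These genes are also made in the striatum and were not flat themselves: in the list of 10 pan-GABAergic genes 9 had a positive log2 fold change (median 0.15), and *Gad1* (0.24, adjusted p = 0.097 by limma) and *Dlx1*, an interneuron fate gene (0.38, adjusted p = 0.042), rose. With 1 animal left out, the call of *Gad1* was kept only without WT_3 (0.16 to 0.31) and that of *Dlx1* was lost without KO_1, KO_2 or WT_1 (0.35 to 0.42). Against this reference all genes shifted down, with a median log2 ratio change of -0.21. limma then called 0.962% of all tested genes as higher and 36.4% as lower, and 5 of the 10 interneuron genes, 2 higher and 3 lower. *Calb2* (0.52, adjusted p = 0.013) and *Pdyn* (0.36, adjusted p = 0.041) were higher relative to the GABA markers. *Cck* (-0.61, adjusted p = 0.015), *Crh* (-0.50, adjusted p = 0.061) and *Tac2* (-0.41, adjusted p = 0.079) were lower. Relative to the median of all genes these 5 stood at 0.73, 0.57, -0.40, -0.29 and -0.20, in the same order. *Sst* and *Vip*, at -0.22 and -0.14 against the GABA markers, stood at -0.01 and 0.07 relative to the median of all genes.

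**Figure D3:**
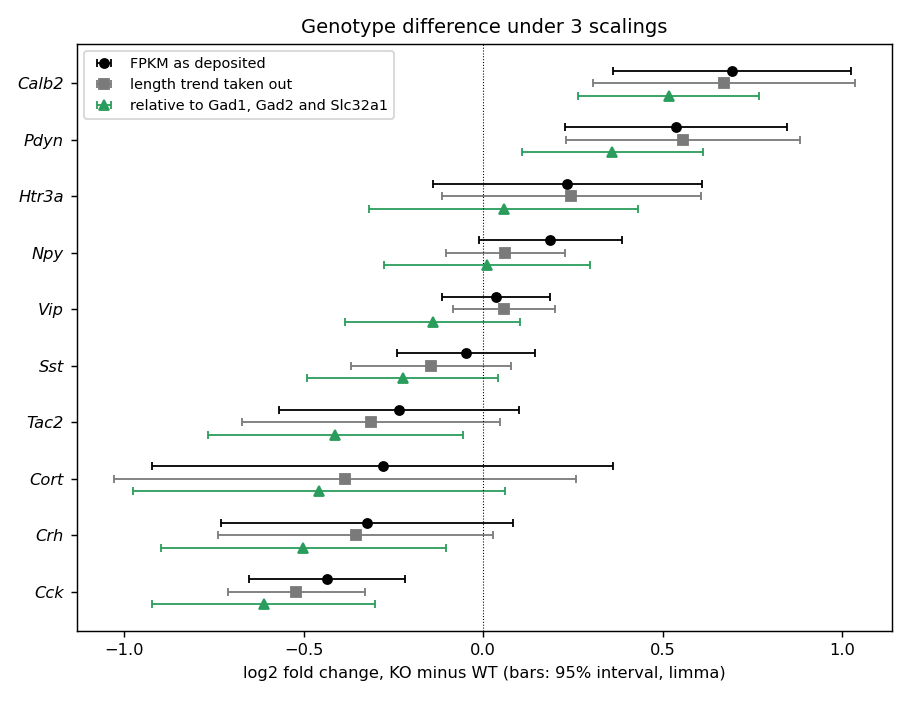
Log2 fold change, KO minus WT (x axis), of each gene (y axis) with 95% limma intervals from the deposited FPKM (black circles), after taking out the transcript length trend (grey squares) and relative to *Gad1*, *Gad2* and *Slc32a1* (green triangles). The intervals of *Calb2*, *Pdyn* and *Cck* lie clear of 0 under all 3 scalings, while those of *Crh* and *Tac2* do so only relative to the GABA markers.

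Lineage genes of the interneuron classes were listed apart from the peptides. Of 11 tested genes of the somatostatin and parvalbumin lineage, 9 had a negative log2 fold change (median -0.18) and 1 fell, *Satb1*, a chromatin organizer needed for the maturation of somatostatin cells (log2 fold change -0.30, adjusted p = 0.078 by limma). *Satb1* was at 42.7, 32.8 and 36.2 FPKM in the WT and at 29.6, 30.8, 30.3 and 29.7 FPKM in the KO, and it is also made by pyramidal cells. Its call was lost under quantile normalization, upper quartile scaling, median centring and the length correction. With 1 animal left out the call was kept only without WT_2 or WT_3 (log2 fold change -0.38 to -0.19, adjusted p of 0.055 to 0.17). Of 12 tested genes of the VIP, Lamp5 and CCK lineage, 8 had a positive log2 fold change (median 0.13) and 1 rose, *Adarb2*, which marks this lineage (log2 fold change 0.46, adjusted p = 0.044). *Adarb2* was at 3.17, 4.05 and 3.37 FPKM in the WT and at 5.06, 4.62, 5.03 and 4.83 FPKM in the KO, and its call was lost without KO_1, KO_2, KO_3 or WT_1 (log2 fold change 0.39 to 0.56 with 1 animal left out).

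The machinery that makes and stores peptides was not called in either direction in the fit described above. Of 13 genes for prohormone convertases, amidation and dense-core granules, limma called 0, with 3 at an unadjusted p under 0.05, and the median log2 fold change was -0.04. The lowest p was that of *Chgb*, a granin (log2 fold change -0.35, adjusted p = 0.1001, just over the threshold). Under alternatives, 1 of the 13 fell with a pseudocount of 0.01 or 1 or a filter at a mean of 5 FPKM. Without WT_3, 1 rose and 2 fell, and 5 fell relative to the GABA markers. Of 10 further cortical neuropeptides, 9 had a positive log2 fold change (median 0.67) and 1 rose: *Cartpt*, the CART precursor, at 3.55, 4.85 and 6.42 FPKM in the WT and 7.84, 6.79, 7.70 and 10.7 FPKM in the KO (log2 fold change 0.75, adjusted p = 0.070 by limma). The call of *Cartpt* was kept only without WT_3 when 1 animal was left out (log2 fold change 0.54 to 0.96, adjusted p of 0.015 to 0.19), and it was lost with the striatal covariate (0.73, adjusted p = 0.14). The summed level of the 10 peptides was 125 to 211 FPKM in the KO and 68.0 to 208 FPKM in the WT, and 2 of them (*Penk* and *Tac1*) are also on the striatal list and 2 (*Nmb* and *Trh*) on the olfactory bulb list. Of 12 activity-regulated genes, which include several CREB targets, 10 had a negative log2 fold change (median -0.26) and 1 fell, *Bdnf* (log2 fold change -0.51, adjusted p = 0.054 by limma), a call lost without KO_1, KO_3, WT_1 or WT_2 (-0.60 to -0.44 with 1 animal left out).

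The genes also differed between animals of 1 genotype, and some differed together. After subtraction of the genotype mean, *Sst* and *Cort* had a Pearson r of 0.937 over the 7 animals (Spearman rho 0.964). It was 0.940 without the 2 animals farthest from the median of *Sst*, KO_1 and KO_2. KO_0 and KO_3, which deviated by 0.60 and -0.50 in *Cort*, stayed in. The r of *Sst* and *Cort* was 0.744 under quantile normalization and 0.783 with the length trend taken out. *Cck* and *Npy* had an r of 0.938 (rho 0.821), and 0.713 without the 2 animals farthest from the median of *Npy*. The r of 0.821 between *Vip* and *Tac2* rested on WT_1, since it was 0.182 without that animal. Of 45 pairs, 5 had an r over 0.8 and 12 an r under -0.5, with a median of 0.25. Among those over 0.8, *Npy* and *Crh* went from 0.861 to -0.459 without the 2 animals farthest from the median of *Npy*. *Cck* and *Crh* went from 0.810 to 0.077 without the 2 farthest from the median of *Cck*. All points of a pair come from the same libraries, and these values are given as a description, without a test.

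**Figure D4:**
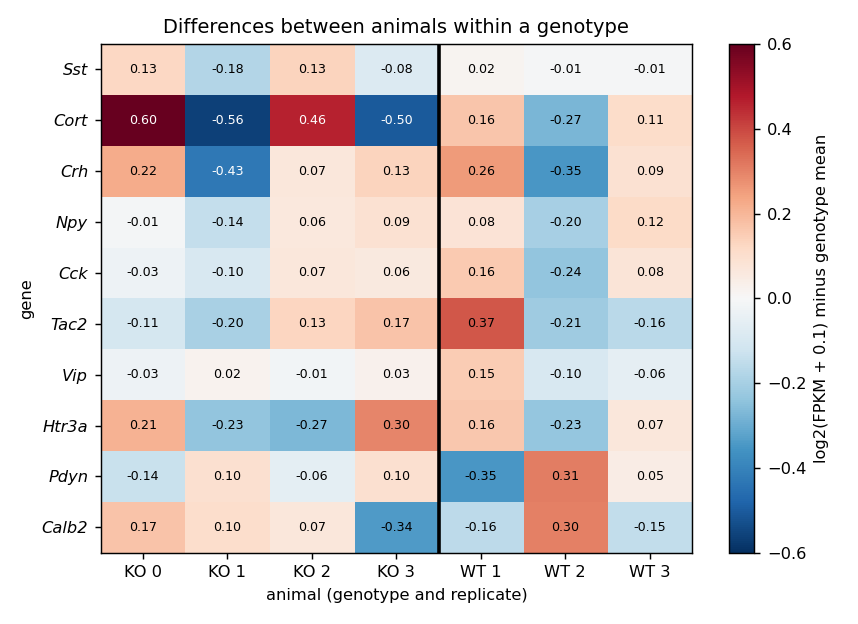
Deviation of each gene (rows) from its genotype mean in log2(FPKM + 0.1) in each animal (columns, KO left and WT right of the line), red above and blue below the mean. *Sst* and *Cort* share their high animals KO_0 and KO_2 and their low animals KO_1 and KO_3, and WT_2 is blue in 8 of 10 rows.

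WT_2 was the lowest WT animal for 8 of the 10 genes and the highest for the other 2, *Pdyn* and *Calb2*, while it was lowest for 33.8% of all tested genes. KO_1 was the lowest KO animal for 6 of the 10, against 24.97% of all tested genes. WT_2 also had the highest striatal level of the WT animals and, seen only after the values were known, 379 FPKM of *Ttr*, a choroid plexus gene, beside 0.32 to 47.9 FPKM in the other animals. Whether these levels bear on the values of the 10 genes in WT_2 was not tested. Defining genes of the hypothalamus and habenula, other sources of peptide genes, were low: 1 of 8 hypothalamic genes (*Pomc*) and 0 of 4 habenular genes reached a mean of 1 FPKM, with summed levels of 2.81 to 4.25 FPKM and 0.74 to 1.08 FPKM over all animals. limma called 0 of 4 hippocampal and 0 of 3 thalamic genes, 0 of 5 each for astrocytes, oligodendrocytes and microglia (1 thalamic gene, *Lef1*, was at an unadjusted p under 0.05), 1 of 5 ependymal and choroid plexus genes (*Capsl* rose by a log2 fold change of 0.82) and 3 of 5 endothelial genes (*Flt1*, *Pecam1* and *Ly6c1* fell by 0.40, 0.31 and 0.33 on the log2 scale). With 1 animal left out these calls were kept in 2 of 7 fits for *Capsl* (without WT_1 or WT_3), 4 for *Flt1* (lost without KO_1, KO_2 or WT_1), 1 for *Pecam1* (without WT_3) and 2 for *Ly6c1* (without WT_2 or WT_3).

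Over all tested genes, the profiles most like that of a member after subtraction of the genotype mean were those of *Asns*, *Rftn2* and *Cacul1* for *Sst* (r of 0.983, 0.981 and 0.970) and of *Scnn1a*, *Sox2* and *Pabpc5* for *Cort* (0.997, 0.986 and 0.980). Those for *Cck* included *Slitrk1* and *Dand5* (0.983 and 0.977). For *Calb2* they were *Lig3*, *Pls1* and *Cdc23* (0.995, 0.990 and 0.990), and for *Pdyn* *Ksr2*, *Zfp715* and *1700096K18Rik* (0.983, 0.980 and 0.9751). With 7 animals such values are common: between 14 and 64 of the tested genes had an r over 0.95 with each member.

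The genes lie on 8 chromosomes (GRCm38, GENCODE M21). *Cck* spans chr9:121489824-121495694 on the minus strand, *Calb2* chr8:110137502-110168210 on the minus strand and *Pdyn* chr2:129686565-129699844 on the minus strand. *Sst* spans chr16:23889573-23890958 on the minus strand and *Cort* chr4:149125034-149126763 on the minus strand. The RefSeq start used for *Sst* above lies inside its span. Most of the bases printed before that start, with the full element, therefore fall within the gene as annotated here. Each is annotated as protein coding, and the FPKM values count all annotated exons of a gene.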

How the data were processed

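Paired-end reads of poly(A) RNA were aligned by the authors to mm10 with the Tuxedo protocol, uniquely and with at most 2 mismatches; the submitters' processing notes name Bowtie and Cuffnorm. The authors deposited FPKM values for 24346 genes in 7 animals, with 0 columns of other samples. The table holds no counts, so no depth was known per library. The commonest log2 ratio between 2 libraries over weakly expressed genes, which follows relative depth, was at most 0.53 in size.

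The 12988 genes that averaged 1 FPKM or more were tested as log2(FPKM + 0.1) with limma 3.58.1 (R 4.3.3) on genotype alone, with a variance trend and Benjamini-Hochberg adjustment over all of them, a gene being called at an adjusted p under 0.1. The added 0.1 understates changes of weak genes. Single genes were also compared with two-sided exact permutation tests over 35 arrangements. Tables used Python 3.11.15, pandas 2.3.3 and scipy 1.17.1. Transcript lengths came from GENCODE M21 (99.4% of tested genes), promoters from RefSeq (GRCm38.p6), which matched 7 of 10 members and not *Crh*, *Calb2* and *Htr3a*.

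Members and lists were chosen with earlier results of these data known. Named were *Slc6a8*, all members, up to 4 called genes of each list (or the gene of lowest p), and the 3 genes most like a member; some of these are not reported here. Alternatives were other pseudocounts, filters, scalings, a length correction, moderation without a trend, a block on replicate numbers, each animal left out and, chosen after seeing the data, striatal or olfactory bulb marker level as a covariate. The fit was tested on simulated data.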

Additional observations from a re-analysis of the deposited data

Results flagged for a closer look

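The genes examined were the members, *Slc6a8* and at most 4 called genes of each other list. The gap of the highest or lowest animal to its neighbor was compared with the range of the 4 KO animals, a rule that flags about 1 in 20 groups by chance. Of 27 genes examined, 2 stood out, both in KO_1. *Dlx1* was at 5.59 FPKM in KO_1 and at 5.01 to 5.11 FPKM in the other KO animals. *Cdhr1*, the olfactory bulb marker, was at 9.14 FPKM in KO_1 and at 2.83 to 3.44 FPKM in the other KO animals. None of the 10 interneuron genes was flagged.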

How the results depend on the processing

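The 1318 genes called, KO against WT, became 730 with no filter on low values, 4849 when centred on *Gad1*, *Gad2* and *Slc32a1*, 389 with the striatal covariate and 0 with the olfactory bulb covariate (2165 at an unadjusted p under 0.05), and 64 (without KO_1) to 3736 (without WT_3) when 1 animal was left out. Calls were 28.6% higher in the KO as deposited, 48.8% under quantile normalization, 54.8% under upper quartile scaling, 48.2% under median centring and 46.9% with the length trend taken out. The 3 interneuron genes called were 5 when centred on the GABA markers, 0 with the bulb covariate and 0 to 4 with 1 animal left out: 0 without KO_1, KO_2 or WT_1, 1 without KO_3, 2 without KO_0 and 4 without WT_3. They were 2 with no filter and with block and length (*Pdyn* lost in both), 2 with the striatal covariate (*Pdyn* lost) and 2 with the block (*Cck* lost). The 15 list genes called and named kept their direction throughout, and their calls in 6 (*Satb1*) to 17 (*Cckbr*) of up to 21 alternatives. The 5 called relative to the GABA markers were 3 with no filter, 2 with the striatal and 0 with the bulb covariate, and 2 to 8 with 1 animal left out (2 without KO_1 or WT_1, 8 without WT_2). *Calb2*, *Pdyn* and *Cck* kept their direction under every alternative listed.

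The deviations of same-numbered animals had an r of -0.08, 0.05 and -0.05 for numbers 1 to 3. These values show no pairing but cannot exclude it, and the labels do not say whether the numbers pair animals. With the replicate block, to which KO_0 adds nothing, 576 genes were called, and 366 with the length trend also taken out. *Calb2* (0.64) and *Pdyn* (0.58) were called under the block and *Cck* (-0.42) was not.

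Signs turned for values near 0. *Sst* was at 0.0056 under quantile normalization, 0.0026 under upper quartile scaling, 0.012 without KO_1 (-0.092 to 0.012 with 1 animal left out) and 0.025 with the bulb covariate, under which *Crh* was at 0.10 and *Tac2* at 0.029. *Vip* was at -0.14 against the GABA markers and -0.013 without WT_2 (-0.013 to 0.11 with 1 animal left out). Against the GABA markers, *Npy* was at -0.025 (quantile), -0.16 (length), -0.14 (block and length), -0.020 (without KO_2), -0.038 (without KO_3) and -0.15 (without WT_2; -0.15 to 0.11 over animals left out), *Htr3a* at -0.0058 (quantile), -0.023 (block and length), -0.060 (without KO_3) and -0.12 (without WT_2; -0.12 to 0.19 over animals left out), and *Crh* at 0.025 (bulb covariate). The cause of these changes was not tested. With 4 against 3 animals no exact p can be below 0.0286, and a table without counts gives no counting error.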
